A study of Homo sapiens with 14 samples.

Results

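This account describes 10 direct target genes of the transcription factor p53, other than the p21 gene CDKN1A, in cartilage pellets grown from human embryonic stem cells. The 10 are MDM2, PHLDA3, TNFRSF10B, FAS, BBC3, BAX, SESN1, TP53INP1, ZMAT3 and GDF15. They were taken by symbol from the 60587 genes measured, and all 10 passed the filter on low counts that left 17838 genes for testing. The pellets were made from WA01, an established human embryonic stem cell line, and were kept in chondrogenic medium, which drives cells towards cartilage, for 21 days (4 libraries), 30 days (5 libraries) or 45 days (5 libraries). All groups share the 1 line and the medium, no untreated or p53-deficient group was analysed here, and the growth conditions are given in the labels only by reference to an earlier publication. RNA of whole pellets was sequenced. Levels are given as CPM (library counts scaled to a common total), computed from the deposited expected counts after TMM scaling. The deposited TPM (counts divided by transcript length, then scaled to a common total) was used without TMM scaling. It serves where genes are compared with each other and, where named, as another scale for comparing days.

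p53 is a transcription factor that is held low by the ubiquitin ligase MDM2 and is stabilised by DNA damage and other stress. It binds paired copies of a short DNA motif near its target genes, and these genes stop the cell cycle, dampen growth signals, repair DNA or start apoptosis. MDM2 is itself a target, which closes a negative feedback loop. In growth plate cartilage, chondrocytes leave the cell cycle, enlarge and in part die as they mature.

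Promoter windows of RefSeq, which run from 250 bases before to 50 bases after a transcription start on build GRCh38.p14, were searched for 7 of the 10 genes, in 15 windows. TNFRSF10B, TP53INP1 and PHLDA3 were not searched, so whether they hold a match is not known here. A 20-base match to the p53 consensus, made of 2 adjacent decamers with the core C and G of each kept and up to 2 mismatches in all, lay in windows of MDM2 and FAS. Such a match was present in 100 of all 35116 windows, or 0.285%, and in 98 of the 27305 genes with a window, or 0.359%. SESN1 and FAS held an exact match to 1 p53 decamer, and in FAS it is the first decamer of the 20-base match. With both strands searched, 6.63% of all windows and 8.06% of the genes with a window hold such a decamer. The consensus reads the same on both strands. These stretches are shown because they carry the motif that names the group, and capitals mark the match on the strand shown. The MDM2 stretch is chr12:68808767-68809001 on the plus strand, in front of an internal start, and its match begins 747 bases after the annotated start of the gene, in an intron of the 7 transcripts that span it. The FAS stretch is chr10:88991304-88991333 on the plus strand, where an exon of 2 of the 20 annotated transcripts, with no coding sequence, covers the match. The SESN1 stretch is chr6:109008989-109009238 on the minus strand, also in front of an internal start. A match is a description of these letters only.
MDM2: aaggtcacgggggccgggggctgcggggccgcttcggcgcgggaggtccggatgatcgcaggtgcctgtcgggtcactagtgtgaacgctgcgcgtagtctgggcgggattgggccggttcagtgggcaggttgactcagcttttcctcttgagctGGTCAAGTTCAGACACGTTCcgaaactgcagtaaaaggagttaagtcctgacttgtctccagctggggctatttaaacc
FAS: ctcctGGACAAGCCCTGACAAGCCAagcca
SESN1: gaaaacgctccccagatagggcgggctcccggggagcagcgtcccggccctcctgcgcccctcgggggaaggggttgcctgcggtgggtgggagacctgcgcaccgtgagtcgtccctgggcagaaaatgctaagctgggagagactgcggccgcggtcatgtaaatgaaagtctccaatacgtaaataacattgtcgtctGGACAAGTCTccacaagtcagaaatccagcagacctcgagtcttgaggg

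Library totals ran between 18183776 and 33660704 expected counts. Summed over 10 chondrocyte markers, levels were 41200 to 54200 CPM at day 21, 104000 to 242000 CPM at day 30 and 195000 to 312000 CPM at day 45, so the pellets carried cartilage RNA at all 3 days. Pluripotency markers summed to 13.8 to 17.3, 3.77 to 6.2 and 0.353 to 1.35 CPM in the same order, with NANOG, LIN28A and TDGF1 at 0 in all day 45 libraries. Day 30 replicates 3, 4 and 5 stood apart: their deviations from the overall mean followed effective gene length, with Spearman's rho of -0.43, -0.52 and -0.47 across genes, against -0.01 and -0.07 in day 30 replicates 1 and 2. Day 45 replicate 1 is titled day 45 while its treatment label reads 30 days, and it was used at day 45. The labels do not say whether replicates were separate cultures, so p-values measure the spread between these libraries, which may be technical. In RNA of whole pellets, fewer cells of a type and less RNA per cell cannot be told apart.

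Of the 10 genes, 5 were higher and 2 lower at day 45 than at day 21, among them GDF15 and SESN1, which rose 6.14-fold and 4.46-fold, PHLDA3, TNFRSF10B and FAS, which rose, and TP53INP1 and BAX, which fell. Changes are on the log2 scale and are the later minus the earlier day. These calls, by the edgeR quasi-likelihood test at an adjusted p below 0.05, stand in a comparison that called 57.7% of all genes, with 27.1% higher and 30.5% lower. The median log2 change of the 10 was 0.70, and that of all genes tested was -0.05. Between day 30 and day 21 the picture was mixed, with 2 of the 10 higher and 4 lower where 54.4% of genes were called (27.2% higher, 27.1% lower), and a median of -0.12 against 0.02 for all genes. Between day 45 and day 30, 7 were higher and 0 lower where 56.3% were called (27.6% higher, 28.7% lower), and the median was 0.74 against -0.04. The number higher there was 5 without day 30 replicates 3, 4 and 5 and 5 with day 45 replicate 1 placed at day 30. The number lower was also 0 at an unadjusted p below 0.05 in edgeR, and DESeq2 and limma called 0 lower. On the log2(TPM + 1) scale, where the median of all genes shifted by -0.34 between day 45 and day 21 and by -0.35 between day 30 and day 21, limma called 4 of the 10 higher and 3 lower in the first comparison, beside 2140 and 8720 of all genes, and 0 and 6 in the second, beside 1788 and 9032. The comparisons share libraries, and with more than 50% of all genes called in each, the number of members called is near the background.

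**Figure D1:**
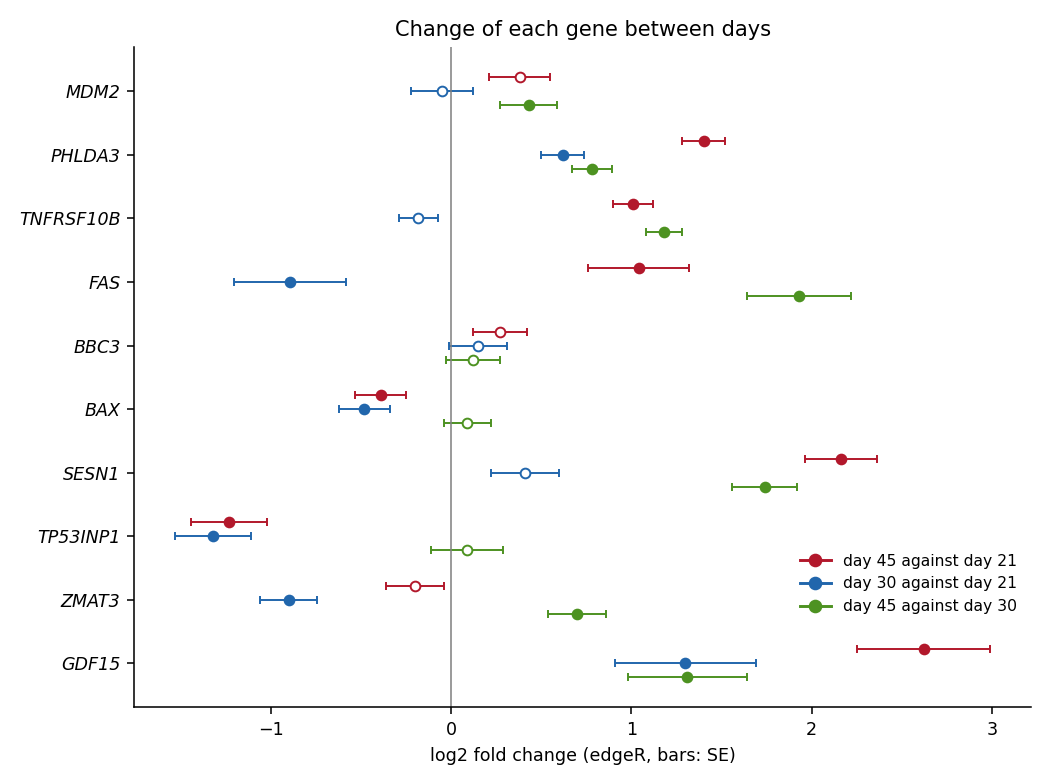
Log2 fold change (horizontal axis) of each of the 10 genes in the 3 comparisons of days, with bars of 1 standard error from edgeR; filled points passed an adjusted p below 0.05. Day 45 against day 21 spans -1.23 for TP53INP1 to 2.62 for GDF15, and BBC3 is open in all 3 comparisons.

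The feedback genes were MDM2 and PHLDA3. MDM2 (ENSG00000135679) lies on chromosome 12 (68808176 to 68850686, plus strand, GRCh38) and encodes the ligase that marks p53 for destruction. In order of replicate number its level was 47.1, 52.7, 70.9 and 55.5 CPM at day 21, 71.3, 71.4, 42.0, 42.3 and 46.0 CPM at day 30, and 63.2, 66.0, 77.5, 84.1 and 77.8 CPM at day 45. Days 21 and 45 overlapped through day 21 replicate 3, and day 30 split into a high pair and the 3 libraries that stand apart, which were low. Day 45 pellets averaged 73.7 ± 8.78 CPM (SD, n = 5) and day 21 pellets 56.6 ± 10.2 CPM (SD, n = 4), a log2 difference of 0.38 ± 0.17 (SE) that was not called (edgeR adjusted p = 0.0669). It was called in 7 of 26 alternative settings, among them leaving out day 30 replicates 3, 4 and 5 (0.36, edgeR adjusted p = 0.00903). Over the 26, edgeR, DESeq2 and limma adjusted p ran between 0.00396 and 0.993. On the log2(TPM + 1) scale, where the median of all genes shifted by -0.34, the difference was 0.0 and was not called by limma. MDM2 was called higher at day 45 than at day 30, by 0.43 ± 0.16 (SE, edgeR adjusted p = 0.0311), but the call ended in 11 of the 26 alternatives, over which edgeR, DESeq2 and limma adjusted p ran between 0.00294 and 0.866. Without day 30 replicates 3, 4 and 5 the difference was 0.03 (edgeR adjusted p = 0.866), with day 45 replicate 1 placed at day 30 it was 0.45 (edgeR adjusted p = 0.0519), with the replicate block 0.44 (edgeR adjusted p = 0.0614) and with an offset for transcript length 0.23 (edgeR adjusted p = 0.105). It also ended without any 1 of day 30 replicates 3, 4 and 5 or day 45 replicates 3, 4 and 5 (edgeR adjusted p between 0.0582 and 0.0822).

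The length of the MDM2 transcripts differed between libraries as well. The mean length that RSEM assigned, weighted by isoform, was 3288 to 3753 bases at day 21, 4222 to 6820 bases at day 30 and 3133 to 3829 bases at day 45, so day 30 did not overlap the other days. TPM, which divides by this length, stood for MDM2 at 26.0, 30.1, 8.91, 11.3 and 14.6 TPM at day 30, all below the lowest day 21 library at 30.2 TPM. On the log2(TPM + 1) scale, where the median of all genes shifted by -0.35, MDM2 differed by -1.02 between day 30 and day 21 (limma adjusted p = 0.00328). The part of transcript length in this difference was not tested. The exons of MDM2 share 133 bases with the gene of carboxypeptidase M on the opposite strand. In day 45 pellets that gene averaged 125 ± 28.6 CPM (SD, n = 5), against 5.45 ± 1.09 CPM in day 21 pellets (SD, n = 4). In day 30 pellets it averaged 108 ± 30.9 CPM (SD, n = 5). The libraries were not made by a kit that marks strand, and its part in the MDM2 values was not tested.

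PHLDA3 (ENSG00000174307), on chromosome 1 (201464383 to 201469237, minus strand), encodes a small pleckstrin homology protein that competes with the kinase AKT for membrane lipids. Its level was 8.37, 8.92, 7.63 and 8.81 CPM at day 21, 12.3, 11.1, 16.5, 12.4 and 12.4 CPM at day 30, and 23.6, 22.9, 21.0, 18.4 and 25.1 CPM at day 45. The 3 days did not overlap, and each later day was higher. PHLDA3 rose by 1.40 ± 0.12 (SE) between day 45 and day 21, or 2.63-fold (edgeR adjusted p = 4.41e-08), by 0.62 ± 0.12 between day 30 and day 21 (edgeR adjusted p = 0.000454) and by 0.78 ± 0.11 between day 45 and day 30 (edgeR adjusted p = 2.81e-05). The first and the last of these calls held in all 26 alternatives, and the day 30 call ended on the log2(TPM + 1) scale (limma adjusted p = 0.0593).

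**Figure D2:**
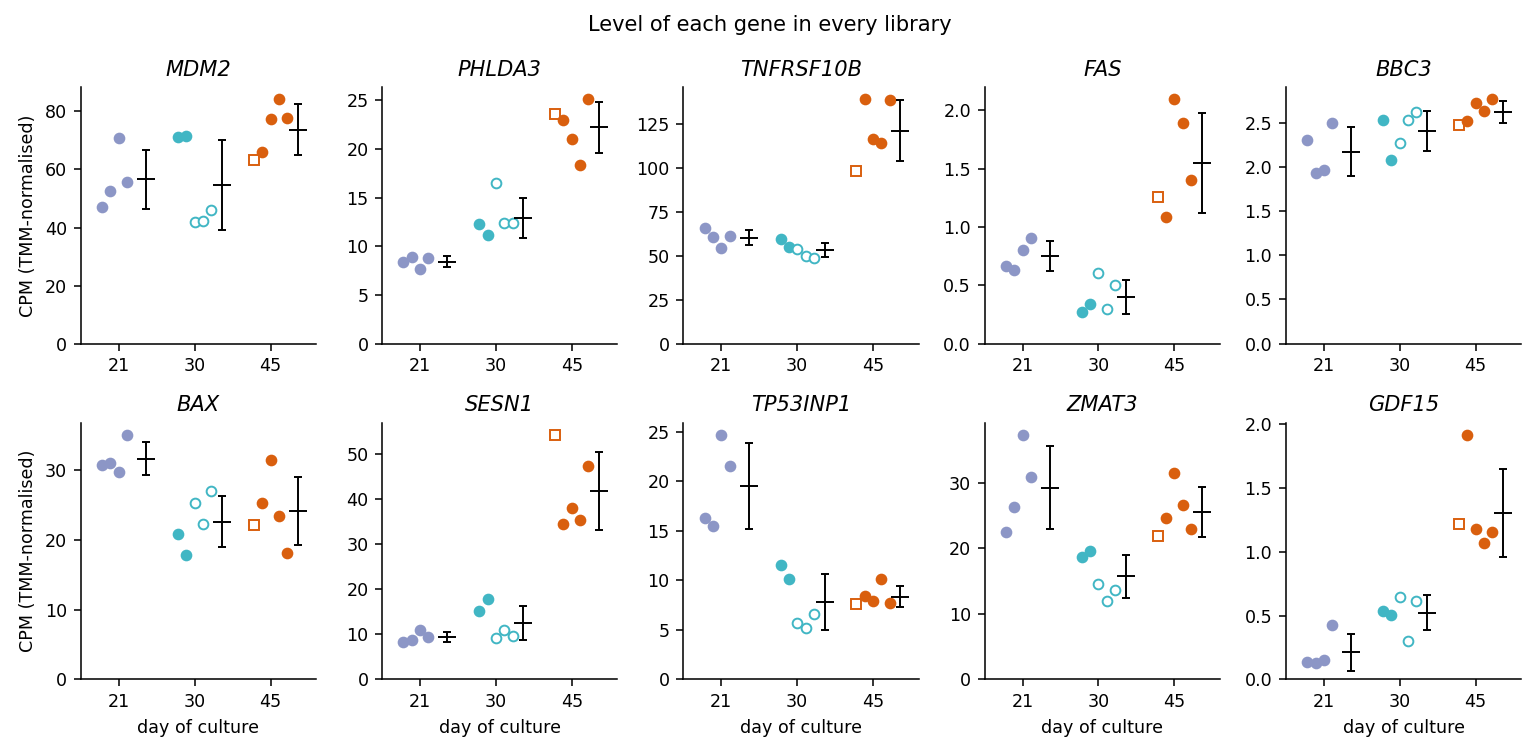
TMM-normalised CPM (vertical axes, from 0) of each gene in every library at days 21, 30 and 45; hollow circles are day 30 replicates 3, 4 and 5, the hollow square is day 45 replicate 1, and the black bar is the mean with its SD. The 3 days of PHLDA3 are separate, while the hollow circles of MDM2 lie at 42.0 to 46.0 CPM under the filled pair of day 30 at 71.3 and 71.4 CPM.

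The death receptor genes TNFRSF10B and FAS encode cell surface proteins that start the caspase cascade when their ligands bind. TNFRSF10B (ENSG00000120889), on chromosome 8, encodes a receptor for TRAIL. It stood at 65.6, 60.5, 54.5 and 61.0 CPM at day 21, 59.3, 54.8, 54.0, 49.99 and 48.9 CPM at day 30, and 98.1, 138.9, 116.3, 114.0 and 138.7 CPM at day 45. Every day 45 library was above every earlier one, while days 21 and 30 overlapped. The gene rose by 1.01 ± 0.11 (SE) between day 45 and day 21 (edgeR adjusted p = 4.21e-07) and by 1.18 ± 0.10 between day 45 and day 30 (edgeR adjusted p = 1.13e-07), and both calls held in all 26 alternatives. Between day 30 and day 21 the difference of -0.18 ± 0.11 was not called (edgeR adjusted p = 0.167). It was called lower on the log2(TPM + 1) scale (-0.70, limma adjusted p = 0.000169).

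FAS (ENSG00000026103), on chromosome 10 (88990582 to 89015785, plus strand), encodes the receptor of FAS ligand. It was low throughout, at 0.667, 0.633, 0.802 and 0.907 CPM at day 21, 0.268, 0.337, 0.602, 0.298 and 0.500 CPM at day 30, and 1.26, 1.09, 2.09, 1.89 and 1.40 CPM at day 45. The 3 days did not overlap, with day 30 the lowest, where 6 to 13 expected counts per library carry the value. FAS rose by 1.04 ± 0.28 (SE) between day 45 and day 21 (edgeR adjusted p = 0.00399), fell by 0.89 ± 0.31 between day 30 and day 21 (edgeR adjusted p = 0.0204) and rose by 1.93 ± 0.29 between day 45 and day 30 (edgeR adjusted p = 3.2e-05). The change between day 45 and day 21 was not called on the log2(TPM + 1) scale (0.22, limma adjusted p = 0.258). With day 45 replicate 1 placed at day 30, the fall at day 30 was 0.45 on the log2 scale and not called (edgeR adjusted p = 0.363), and it also ended without day 21 replicate 4 or day 30 replicate 1 (edgeR adjusted p = 0.0568 and 0.0532). FAS shares 380 exon bases with ACTA2, the smooth muscle actin gene on the opposite strand, whose median was 490.6 expected counts against 26.9 for FAS. ACTA2 averaged 15.5 ± 3.88 CPM in day 45 pellets (SD, n = 5), against 20.3 ± 7.36 CPM in day 21 pellets (SD, n = 4), a difference of -0.39 ± 0.42 (SE, edgeR adjusted p = 0.449). In day 30 pellets it averaged 33.0 ± 22.0 CPM (SD, n = 5). It differed by 0.71 ± 0.42 between day 30 and day 21 (edgeR adjusted p = 0.172) and by -1.10 ± 0.40 between day 45 and day 30 (edgeR adjusted p = 0.0319). The part of ACTA2 in the FAS values was not tested.

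The ligands of these receptors were at or near 0. FASLG, which encodes FAS ligand, was at 0 in all 14 libraries, and TNFSF10, which encodes TRAIL, averaged at most 0.0327 CPM at any day. TNFRSF11B, the gene of the decoy receptor osteoprotegerin, which binds TRAIL and RANKL, rose between day 45 and day 21 by 1.44 ± 0.16 (SE, edgeR adjusted p = 7.01e-07). Of the other TRAIL receptors, TNFRSF10D, a decoy without a working death domain, averaged 116 ± 10.9 CPM in day 45 pellets (SD, n = 5), against 84.7 ± 2.33 CPM in day 21 pellets (SD, n = 4), and rose by 0.45 ± 0.10 (SE, edgeR adjusted p = 0.00102). TNFRSF10A, a second signalling receptor, rose by 0.85 ± 0.30 (edgeR adjusted p = 0.0223) and averaged 0.747 ± 0.22 CPM at day 45 (SD, n = 5) and 0.412 ± 0.0722 CPM at day 21 (SD, n = 4).

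Of the genes of the mitochondrial route, BBC3 was called in no comparison and BAX was lower at days 30 and 45 than at day 21. BBC3 (ENSG00000105327), on chromosome 19 (47220822 to 47232766, minus strand), encodes PUMA, which blocks the survival proteins of the BCL2 family. Its level was 2.31, 1.93, 1.97 and 2.49 CPM at day 21, 2.53, 2.08, 2.27, 2.53 and 2.62 CPM at day 30, and 2.47, 2.51, 2.72, 2.63 and 2.76 CPM at day 45. All 3 days overlapped. Differences of 0.27 ± 0.15 (SE) between day 45 and day 21, 0.15 ± 0.16 between day 30 and day 21 and 0.12 ± 0.15 between day 45 and day 30 were not called (edgeR adjusted p = 0.145, 0.433 and 0.507), nor were they in any of the 26 alternatives. PMAIP1, which encodes the related protein NOXA, differed by 0.19 ± 0.20 between day 45 and day 21 (edgeR adjusted p = 0.441).

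BAX (ENSG00000087088), on chromosome 19 (48954815 to 48961798, plus strand), encodes a protein that opens pores in the outer mitochondrial membrane. It stood at 30.8, 31.0, 29.7 and 35.0 CPM at day 21, 20.8, 17.8, 25.2, 22.3 and 27.0 CPM at day 30, and 22.1, 25.3, 31.5, 23.5 and 18.2 CPM at day 45. Every day 30 library was below every day 21 library, and day 45 overlapped day 21 through replicate 3. BAX fell by 0.48 ± 0.14 (SE) between day 30 and day 21 (edgeR adjusted p = 0.00796), in all 26 alternatives. Between day 45 and day 21 it fell by 0.39 ± 0.14 (edgeR adjusted p = 0.024), a call that ended with day 45 replicate 1 placed at day 30 or left out (edgeR adjusted p = 0.0647 and 0.0559) and without day 21 replicate 4 or day 45 replicate 5 (edgeR adjusted p = 0.0758 and 0.0677). The difference of 0.09 between day 45 and day 30 was not called (edgeR adjusted p = 0.583), but with an offset for transcript length it was 0.46 and called (edgeR adjusted p = 0.00324). Its partner BAK1 differed by -0.13 ± 0.10 between day 45 and day 21 (edgeR adjusted p = 0.275).

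The next genes restrain growth or act on RNA. SESN1 (ENSG00000080546), on chromosome 6 (108986437 to 109094819, minus strand), encodes sestrin 1, which limits the growth kinase complex mTORC1 and oxidative stress. Its level was 8.37, 8.76, 10.99 and 9.41 CPM at day 21, 15.2, 17.8, 9.17, 10.9 and 9.61 CPM at day 30, and 54.2, 34.4, 37.9, 35.3 and 47.3 CPM at day 45. Day 45 lay far above the other days, and at day 30 only replicates 1 and 2 were above all day 21 libraries. SESN1 rose by 2.16 ± 0.20 (SE) between day 45 and day 21 (edgeR adjusted p = 6.82e-08), in all 26 alternatives. Between day 30 and day 21 the difference was 0.41 ± 0.19 (edgeR adjusted p = 0.0777), and without day 30 replicates 3, 4 and 5 it was 0.81 and called (edgeR adjusted p = 0.00223). The rise between day 45 and day 30, 1.74 ± 0.18 (edgeR adjusted p = 9.6e-07), was 0.99 with day 45 replicate 1, the highest library, placed at day 30 and was then not called (edgeR adjusted p = 0.064). SESN2, the paralog that also answers to ATF4, averaged 36.9 ± 6.77 CPM at day 45 (SD, n = 5) and 15.2 ± 4.27 CPM at day 21 (SD, n = 4) and rose by 1.28 ± 0.17 (SE, edgeR adjusted p = 5.85e-06).

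TP53INP1 (ENSG00000164938), on chromosome 8, encodes a nuclear protein that promotes p53 phosphorylation and autophagy. It stood at 16.3, 15.5, 24.7 and 21.6 CPM at day 21, 11.6, 10.1, 5.70, 5.21 and 6.58 CPM at day 30, and 7.62, 8.37, 7.90, 10.1 and 7.67 CPM at day 45. All libraries of days 30 and 45 were below all of day 21, and the later days overlapped each other. TP53INP1 fell by 1.23 ± 0.21 (SE) between day 45 and day 21 (edgeR adjusted p = 7.9e-05) and by 1.32 ± 0.21 between day 30 and day 21 (edgeR adjusted p = 5.73e-05), in all 26 alternatives. Without day 30 replicates 3, 4 and 5 its day 30 mean was 10.8 CPM in place of 7.83 CPM.

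ZMAT3 (ENSG00000172667), on chromosome 3 (179017223 to 179072279, minus strand), encodes a zinc finger protein that binds RNA and alters splicing and stability of target transcripts. Its level was 22.5, 26.3, 37.2 and 30.9 CPM at day 21, 18.7, 19.6, 14.6, 12 and 13.6 CPM at day 30, and 21.8, 24.6, 31.5, 26.6 and 22.9 CPM at day 45. Day 30 was below both other days in every library, and day 45 overlapped day 21. ZMAT3 fell by 0.90 ± 0.16 (SE) between day 30 and day 21 (edgeR adjusted p = 0.000187), in all 26 alternatives, while the difference of -0.20 ± 0.16 between day 45 and day 21 was not called (edgeR adjusted p = 0.31), though it was on the log2(TPM + 1) scale (-0.54, limma adjusted p = 0.0348). It rose by 0.70 ± 0.16 between day 45 and day 30 (edgeR adjusted p = 0.00112). Without day 30 replicates 3, 4 and 5 that rise was 0.40 (edgeR adjusted p = 0.0819), and with an offset for transcript length it was 0.21 (edgeR adjusted p = 0.132).

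GDF15 (ENSG00000130513), on chromosome 19 (18374731 to 18389176, plus strand), encodes a secreted protein of the TGF-beta superfamily that answers to p53 and also to the stress factors ATF4 and CHOP. It was the lowest of the 10 by TPM at day 21, at 0.139, 0.127, 0.155 and 0.425 CPM, or 5 to 15 expected counts. Day 30 libraries held 0.536, 0.506, 0.648, 0.298 and 0.615 CPM, and day 45 libraries 1.22, 1.91, 1.18, 1.07 and 1.15 CPM. Day 45 was above all earlier libraries, and days 21 and 30 overlapped through day 21 replicate 4. GDF15 rose by 2.62 ± 0.37 (SE) between day 45 and day 21 (edgeR adjusted p = 1.14e-05) and by 1.31 ± 0.33 between day 45 and day 30 (edgeR adjusted p = 0.00269), in all 25 alternatives that tested it. The rise of 1.30 ± 0.39 between day 30 and day 21 (edgeR adjusted p = 0.00965) ended without day 30 replicates 3, 4 and 5 (1.29, edgeR adjusted p = 0.0554) and on the log2(TPM + 1) scale (0.21, limma adjusted p = 0.365). Of its receptor pair, GFRAL was at 0 in all 14 libraries, and the coreceptor gene RET fell by 1.55 ± 0.36 between day 45 and day 21 (edgeR adjusted p = 0.0015).

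ATF4 and CHOP target and stress genes moved beside GDF15. All 17 of a list of such genes were called higher between day 45 and day 21, where 27.1% of all genes were higher and 30.5% lower. The median of the 17 was 1.2. Among them were DDIT3, which encodes CHOP (2.97 ± 0.17, SE, edgeR adjusted p = 1.63e-10), and the pseudokinase gene TRIB3 (3.19 ± 0.18, edgeR adjusted p = 2e-10). Of the 17, 13 rose and 1 fell between day 30 and day 21, where 27.2% of all genes were higher and 27.1% lower. Between day 45 and day 30, 10 rose and 1 fell, where 27.6% of all genes were higher and 28.7% lower. The number that fell between day 30 and day 21 was 0 without day 30 replicates 3, 4 and 5, with day 45 replicate 1 placed at day 30, with a length offset, and without any 1 of day 21 replicates 1 and 2 or day 30 replicates 3, 4 and 5. With that placement and with the offset it was also 0 between day 45 and day 30. On the log2(TPM + 1) scale 13 of the 17 were called higher and 0 lower between day 45 and day 21, beside 2140 and 8720 of all 17838 genes. Between day 30 and day 21, 11 were higher and 3 lower on that scale, beside 1788 and 9032. The summed level of the 17 was 1410 to 1810 CPM at day 21, 2420 to 2780 CPM at day 30 and 3130 to 3620 CPM at day 45. Immediate early genes, which also answer to handling, summed to 215 to 225, 278 to 339 and 590 to 803 CPM at the same days, with 8 of 12 called higher and 1 lower between day 45 and day 21. The part of either list in the levels of the 10 genes was not tested.

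Compared per transcript length, the 10 genes spanned a wide range. At day 21 BAX was highest, at 109.4 ± 7.68 TPM (SD, n = 4), above TNFRSF10B at 42.2 ± 2.57 TPM and MDM2 at 34.6 ± 6.43 TPM, which overlapped. PHLDA3, ZMAT3, SESN1 and TP53INP1 followed at 11.2 ± 0.542, 9.71 ± 1.86, 8.32 ± 1.19 and 7.43 ± 1.97 TPM, each overlapping the next. BBC3 came next at 3.34 ± 0.313 TPM, and FAS and GDF15 were lowest at 1.36 ± 0.383 and 0.610 ± 0.594 TPM, with overlap.

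At day 30 the order was BAX, TNFRSF10B, MDM2, PHLDA3, SESN1, ZMAT3, BBC3, TP53INP1, GDF15 and FAS, and spanned 57.2 ± 8.11 TPM for BAX to 0.498 ± 0.168 TPM for FAS (SD, n = 5). By day 45 TNFRSF10B, at 64.0 ± 9.88 TPM, and BAX, at 62.5 ± 16.6 TPM, overlapped at the top. MDM2, SESN1 and PHLDA3 formed the next tier at 34.5 ± 3.95, 26.9 ± 3.81 and 24.3 ± 3.24 TPM, each overlapping the next. ZMAT3 stood alone at 6.37 ± 1.23 TPM, and BBC3, TP53INP1, GDF15 and FAS lay at 2.85 ± 0.307, 2.32 ± 0.388, 2.06 ± 0.557 and 1.77 ± 0.592 TPM, again with overlap between neighbours.

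**Figure D3:**
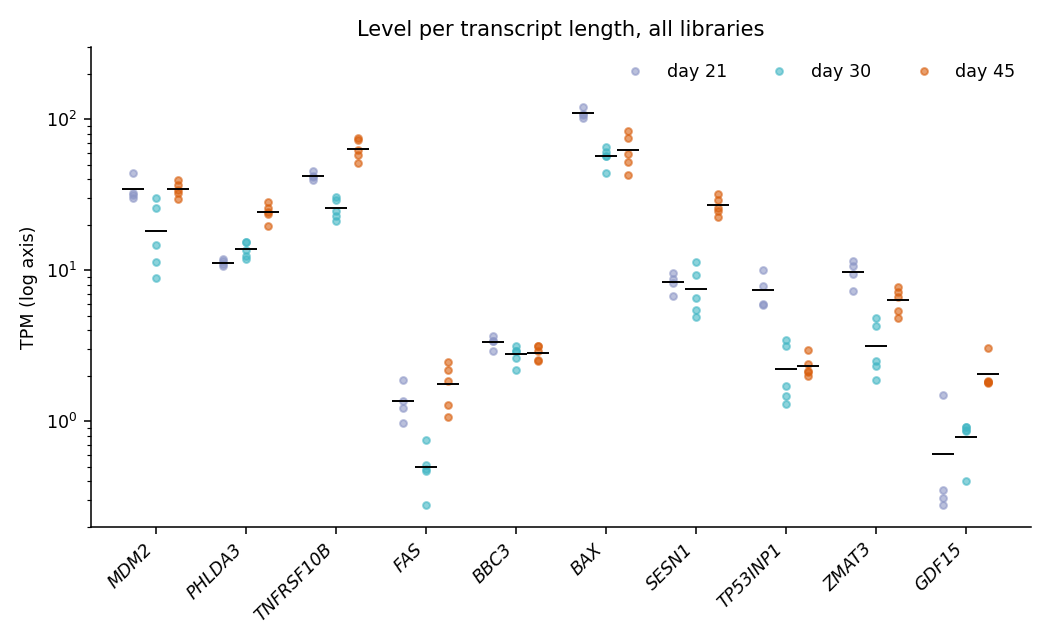
TPM (vertical log axis) of the 10 genes in every library at days 21, 30 and 45, with a black bar at each mean. BAX averages 109.4 TPM at day 21, and the tier of MDM2, SESN1 and PHLDA3 at day 45 lies at 24.3 to 34.5 TPM.

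The groups of 2 days did not overlap for 6 of the 10 genes between day 45 and day 21, where 51.5% of all genes tested had no overlap. Between day 30 and day 21 the number was 5, beside 42.4% of all genes, and between day 45 and day 30 it was 6, beside 38.3%. PHLDA3 and FAS were separate in all 3 comparisons, and MDM2 and BBC3 in none.

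Of 12 tested p53 regulators, out of 13 listed, 0 rose and 5 fell between day 45 and day 21, where 27.1% of all genes were higher and 30.5% lower, and the median was -0.35. At an unadjusted p below 0.05 in edgeR 0 were higher and 6 lower, DESeq2 called 0 and 5, and leaving out day 30 replicates 3, 4 and 5 gave 1 and 6. Fitting only the days compared also gave 1 and 6, and the length offset 2 and 5. The genes that fell were the checkpoint kinase genes CHEK1 (-0.79 ± 0.16) and CHEK2 (-0.93 ± 0.13), PPM1D, which encodes a phosphatase that resets p53 (-0.57 ± 0.12), the ubiquitin ligase gene RCHY1 (-0.64 ± 0.19) and EP300, an acetyltransferase gene (-0.37 ± 0.15), with edgeR adjusted p between 9.32e-06 and 0.0461. Of these 5, EP300 was called in 14 of the 26 alternatives and the others in all 26. Of the 12, 1 rose and 8 fell between day 30 and day 21, where 27.2% of all genes were higher and 27.1% lower. In that comparison 4 were lower without day 21 replicate 3, 5 without day 30 replicate 3 and 5 without day 30 replicates 3, 4 and 5. Between day 45 and day 30, 5 rose and 2 fell, where 27.6% of all genes were higher and 28.7% lower, and 4 were lower without day 30 replicates 3, 4 and 5. On the log2(TPM + 1) scale 9 were lower in each of the comparisons with day 21. Of all 17838 genes, 8720 were lower at day 45 and 9032 at day 30 on that scale, where their median shifted by -0.34 and -0.35. The list medians less that shift were -0.16 and -0.36. MDM4, the partner of MDM2, was called higher at day 30 than at day 21 (0.55 ± 0.21, edgeR adjusted p = 0.0326) and lower at day 45 than at day 30 (-1.01 ± 0.20, edgeR adjusted p = 0.00043). The first call held in 14 of the 26 alternatives and ended, among others, with the replicate block, with only the days compared, with day 45 replicate 1 placed at day 30, and without any 1 of day 21 replicates 1, 2 and 4 or day 30 replicates 2 and 5. The second held in 24 of 26. Neither was called on the log2(TPM + 1) scale, where MDM4 differed by -0.22 between day 30 and day 21 and by -0.14 between day 45 and day 30. CDKN2A, which encodes p16 and ARF, did not pass the filter and averaged at most 0.329 CPM at any day. The fit without a low-count filter called CDKN2A higher between day 45 and day 21 (1.64, edgeR adjusted p = 0.0388). In that comparison the same fit called 1 of 13 regulators higher and 5 lower.

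Other p53 targets moved in both directions. Of 32 tested out of 35 listed, 17 rose and 6 fell between day 45 and day 21, where 27.1% of all genes were higher and 30.5% lower. The median of the list was 0.31. On the log2(TPM + 1) scale 8 rose and 13 fell, beside 2140 higher and 8720 lower of all 17838 genes. The median of all genes shifted by -0.34 there, and the list median less that shift was 0.24. The summed level of the listed genes was 733 to 791 CPM at day 21, 748 to 830 CPM at day 30 and 1080 to 1110 CPM at day 45. CDKN1A, the p21 gene, averaged 159 ± 10.3 CPM in day 45 pellets (SD, n = 5), against 27.1 ± 0.366 CPM in day 21 pellets (SD, n = 4), and rose by 2.55 ± 0.09 (SE, edgeR adjusted p = 2.47e-12). GADD45A, a growth arrest gene, rose by 3.19 ± 0.12, PERP, a gene of desmosomes and apoptosis, by 3.24 ± 0.20 and the DNA repair gene XPC by 1.08 ± 0.09 (edgeR adjusted p = 3.88e-12, 3.57e-10 and 1.27e-08). Those that fell include the kinase gene PLK2 (-1.56 ± 0.20), the oxidoreductase gene TP53I3 (-1.58 ± 0.26) and the tetraspanin gene CD82 (-1.19 ± 0.15), with edgeR adjusted p between 3.51e-06 and 4.91e-05. Of the 32, 8 rose and 11 fell between day 30 and day 21, where 27.2% of all genes were higher and 27.1% lower. The number lower was 6 without day 30 replicates 3, 4 and 5 and 7 with day 45 replicate 1 placed at day 30. On the log2(TPM + 1) scale 4 were higher and 19 lower, beside 1788 and 9032 of all genes. In the last comparison, between day 45 and day 30, 15 rose and 3 fell, where 27.6% of all genes were higher and 28.7% lower. Under either change of libraries 1 was lower. With day 45 replicate 1 placed at day 30, 3 were lower between day 45 and day 21 in place of 6.

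**Figure D4:**
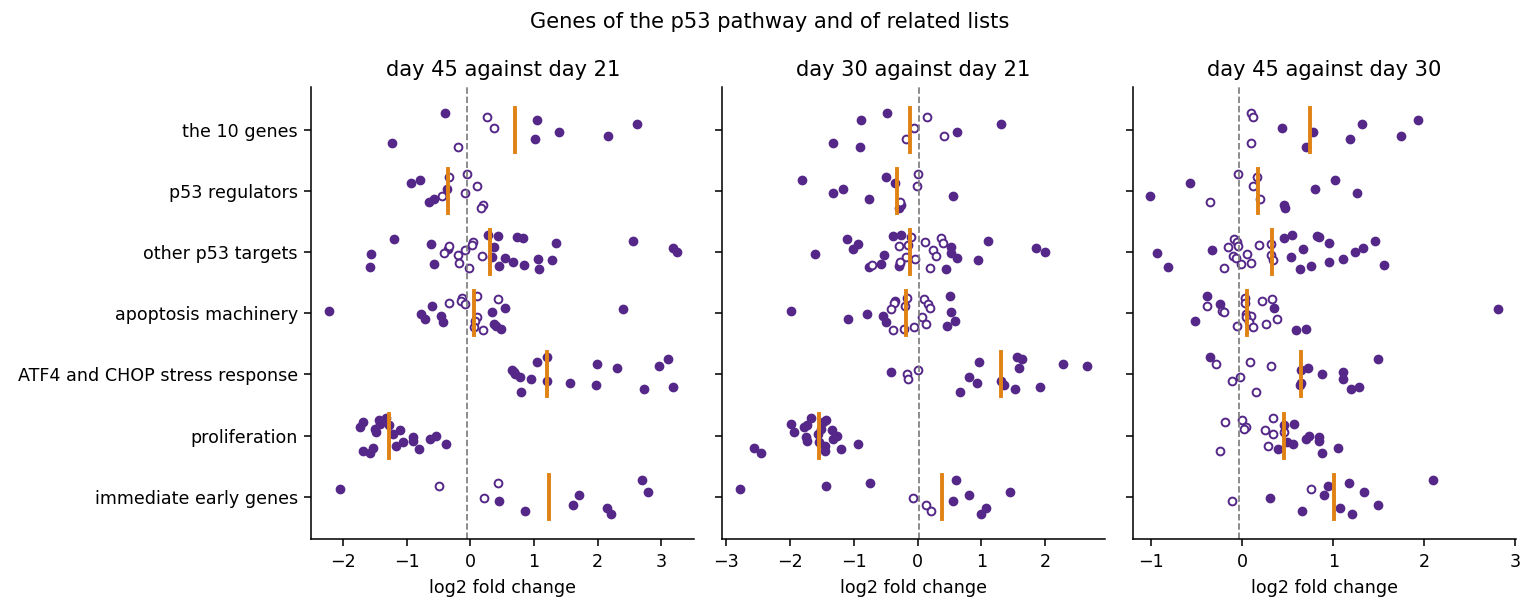
Log2 fold change (horizontal axes, edgeR) of every tested gene in 7 lists for the 3 comparisons of days; filled points were called, orange bars are list medians and the dashed line is the median of all genes tested. Between day 45 and day 21 the medians are 0.70 for the 10 genes, -0.35 for p53 regulators, 0.31 for other p53 targets, 1.2 for the ATF4 and CHOP list and -1.28 for proliferation.

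Of 22 tested genes of the apoptosis machinery (25 listed), 6 were higher and 6 lower between day 45 and day 21, near the shares of all genes (27.1% higher, 30.5% lower), and the median was 0.06. On the log2(TPM + 1) scale 1 was higher and 12 lower, beside 2140 and 8720 of all 17838 genes. Between day 30 and day 21 0 were higher and 14 lower on that scale, beside 1788 and 9032. The list medians less the shift of all genes on that scale were -0.03 and -0.16 in these 2 comparisons. On counts 4 rose and 6 fell between day 30 and day 21, where 27.2% of all genes were higher and 27.1% lower. Between day 45 and day 30, where 27.6% of all genes were higher and 28.7% lower, 4 rose and 3 fell. That last pair was 3 and 1 without day 30 replicates 3, 4 and 5, 9 and 2 with the length offset and 6 and 1 on the log2(TPM + 1) scale. BMF, a killer protein gene of the BCL2 family, fell by 2.22 ± 0.13 (SE) between day 45 and day 21. Over the same days the inhibitor of apoptosis gene BIRC3 rose by 2.39 ± 0.34 and the survival gene MCL1 by 0.48 ± 0.11 (edgeR adjusted p = 1.53e-10 for BMF, 1.18e-05 for BIRC3 and 0.00138 for MCL1). Proliferation genes fell in all 21 members between day 45 and day 21, where 30.5% of all genes were lower. They fell again in all 21 between day 30 and day 21, where 27.1% were lower. Between day 45 and day 30, where 27.6% of all genes were higher, 11 rose. That number was 3 with day 45 replicate 1 placed at day 30 and 18 without day 30 replicates 3, 4 and 5. Between day 45 and day 21 the proliferation marker MKI67 fell by 1.52 ± 0.14 and the topoisomerase gene TOP2A by 1.58 ± 0.17 (edgeR adjusted p = 7.19e-08 and 4e-07). Their summed level was 1110 to 1370 CPM at day 21, 278 to 445 CPM at day 30 and 469 to 626 CPM at day 45, so they were lowest at day 30.

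Genes with a course most like that of a member were named by the root mean square difference of centred log2 CPM over the 14 libraries, among 9207 genes and for the members with the widest range of day means and enough counts. HERC3, GBE1 and LOX were nearest to SESN1, at 0.18, 0.20 and 0.21 for a range of 2.13. IER5L, ARAP1 and LARP6 were nearest to PHLDA3, at 0.10, 0.10 and 0.11 for a range of 1.38. TP53INP1, with a range of 1.36, had PGAP1 and TGFB2 among the nearest, at 0.18 and 0.19.

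Setting the libraries that stand apart aside moved some genes and not others. TNFRSF10B, SESN1, TP53INP1, GDF15 and PHLDA3 kept their calls between day 45 and day 21 under each alternative that tested them. MDM2, SESN1 and ZMAT3 changed their call in a comparison with day 30 once replicates 3, 4 and 5 were left out, and GDF15 lost its call between day 30 and day 21.

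**Figure D5:**
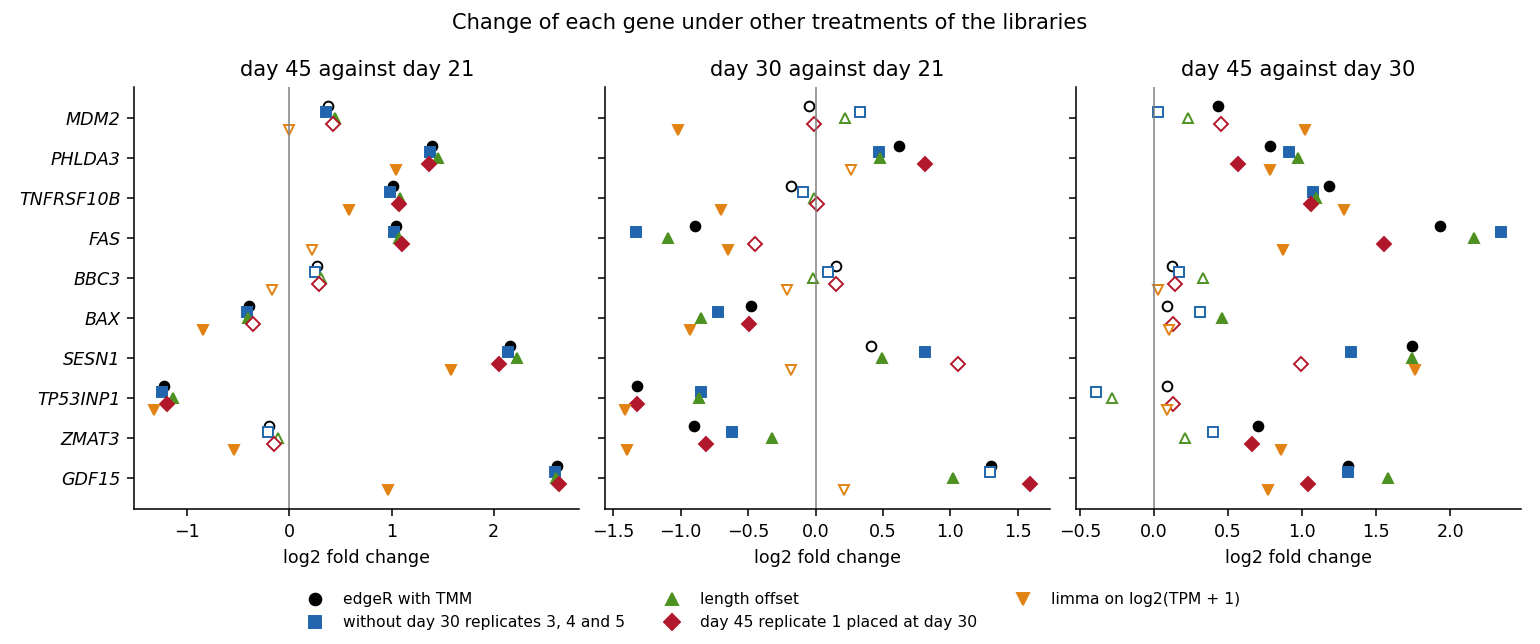
Log2 fold change (horizontal axes) of the 10 genes under edgeR with TMM and under 4 other treatments of the libraries; filled marks passed an adjusted p below 0.05. Without day 30 replicates 3, 4 and 5, MDM2 differs by 0.03 between day 45 and day 30 in place of 0.43, while TNFRSF10B is filled in every treatment for day 45 against day 21 and day 45 against day 30.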

How the data were processed

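Per the labels' protocols, whole-pellet RNA came from an RNeasy micro kit and went into TruSeq RNA v2 libraries, which do not keep strand. Per the submitters' processing notes, STAR 2.4.2a and RSEM 1.2.25 were used with GRCh38. Which gene annotation served there was not given in the sources used here. Per the file headers, each library's deposited table holds an expected count, a TPM value, a length and an effective length per gene, with replicates in separate tables. From the 60587 identifiers, 60333 had a symbol and 58400 were in GENCODE 29, which gave positions.

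Expected counts were rounded. Genes kept by filterByExpr (17838) were scaled by TMM and tested by quasi-likelihood F-tests in edgeR 4.0.16 (R 4.3.3), robust, with 1 mean per day over 14 libraries; Benjamini-Hochberg adjusted p below 0.05 over all genes was a call, and SE is the log2 change over the square root of F. The 26 alternatives (DESeq2 1.42.0 and its size factors, limma 3.58.1 on log2 of the deposited TPM plus 1 or 0.1, other filters, other sample sets, a length offset, a replicate block, 14 leave-one-out fits) are in the closing section. The genes, lists and tests were chosen with earlier results of these data known. The text names the 10 genes, any p53 regulator, ligand or partner, up to 4 genes of each other list by smallest adjusted p between day 45 and day 21, and the 3 genes nearest in course to each of the 3 members with the widest range of day means and a mean of at least 1 CPM, among genes of at least 10 CPM. TNFRSF10A, TNFRSF10D, PMAIP1, BAK1, SESN2, PLK2, TP53I3, CD82 and the genes that overlap a member fall outside this rule and were chosen after their values were seen. Results for a few genes under this rule are not reported here, and the list of p53 regulators is counted without them.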

Additional observations from a re-analysis of the deposited data

Results flagged for a closer look

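In 3 of 30 groups of a gene and a day, 1 library lay far from the others by Dixon's ratio of the gap to the range, past its critical value, which chance alone gives in about 1 in 20 groups. GDF15 in day 21 replicate 4 was 0.425 CPM, and the other day 21 libraries were 0.127 to 0.155 CPM, a ratio of 0.904. GDF15 in day 45 replicate 2 was 1.91 CPM, with the other day 45 libraries at 1.07 to 1.22 CPM, a ratio of 0.826. PHLDA3 in day 30 replicate 3, a library with a length-related trend, was 16.5 CPM, with the others of day 30 at 11.1 to 12.4 CPM, a ratio of 0.759. The rise of GDF15 between day 45 and day 21 and that of PHLDA3 between day 45 and day 30 kept their calls with any 1 of these libraries left out.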

How the results depend on the processing

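Of the alternatives, limma on TPM moved the counts over all genes most. Between day 45 and day 21 it called 2140 genes higher and 8720 lower with a pseudocount of 1, and 2119 and 8641 with 0.1, in place of 4836 and 5448. Between day 30 and day 21 the numbers were 1788 and 9032, and 1749 and 8892, in place of 4858 and 4838. The median of all genes shifted by -0.34 and -0.35 with the pseudocount of 1, and by -0.46 and -0.45 with 0.1; the cause was not tested. Of the 10 genes, those called higher between day 30 and day 21 went to 0 on both TPM scales, with edgeR calling 3 at an unadjusted p below 0.05 on counts, and to 1 with a filter of 1 CPM in 4 libraries, which dropped GDF15. With day 45 replicate 1 placed at day 30, 3036 genes in place of 4930 were higher between day 45 and day 30, and 1 of the 10 in place of 2 was lower between day 45 and day 21. The same number lay between 1 and 2 when libraries were left out in turn. With the replicate block, 5 of the 10 were higher and 2 lower between day 45 and day 21, 2 and 4 between day 30 and day 21, and 6 and 0 between day 45 and day 30, where MDM2 lost its call (0.44, edgeR adjusted p = 0.0614). The deviations of same-numbered libraries of different days correlated with r of -0.25 to 0.12 over 13 pairs, 1 of them above 0.1. Pairs with different numbers ran between -0.22 and 0.23. The labels do not say whether same-numbered libraries share a culture, and these correlations cannot tell. The block changed no other call of the 10. No called change of the 10 genes turned its sign under any alternative. BBC3, TP53INP1 and TNFRSF10B between day 45 and day 30 kept their side of the threshold throughout. Without day 30 replicates 3, 4 and 5, day 30 means were 71.4 CPM for MDM2, 16.5 for SESN1, 19.1 for ZMAT3 and 10.8 for TP53INP1. Depth limits FAS and GDF15, with 5 to 57 expected counts per library, more than the other genes.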

Other observations

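Lists of markers of other cell types were summed for each library. Summed over 5 blood markers, levels were 0.836 to 1.5 CPM at day 21, 5.42 to 12.6 CPM at day 30 and 45.5 to 65.2 CPM at day 45, with HBB at 0 at days 30 and 45. Of these 5, CD68 alone passed the filter, and it was 5.64 ± 0.26 (log2, SE) higher at day 45 than at day 21 (edgeR adjusted p = 2.63e-11). Endothelial markers (5) summed to 24.0 to 32.4, 6.41 to 15.9 and 8.52 to 11.8 CPM at days 21, 30 and 45, with the defining marker CDH5 at 0 in all libraries, and of the 2 tested 1 was higher and 1 lower at day 45 than at day 21. Neuronal markers (6) summed to 15.6 to 21.2, 22.6 to 28.7 and 21.2 to 26.7 CPM, and markers of skeletal and cardiac muscle (6) to 8.43 to 11.8, 5.63 to 13.9 and 6.3 to 11.1 CPM. The 5 epithelial markers summed to at most 1.07 CPM. Tendon and fibrous markers (6) summed to 14600 to 15400, 11500 to 17300 and 12300 to 17700 CPM. Of these 6, 0 were called higher and 4 lower between day 45 and day 21, where 27.1% of all genes were higher and 30.5% lower. Their median log2 change there was -1.2. Hypertrophic chondrocyte markers summed to 81.6 to 148, 370 to 462 and 1590 to 4140 CPM at days 21, 30 and 45. Of 5 tested, 4 were higher and 1 lower at day 45 than at day 21, where 27.1% of all genes were higher and 30.5% lower. The part of these lists in the levels of the 10 genes was not tested.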
